A study of Homo sapiens with 15 samples.

Results

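WT6 is a clone grown from a single cell in which doxycycline, an antibiotic added to the medium, switches on a FLAG-tagged wild type RBM47 transgene. Its dose series held 5 of the 15 libraries sequenced: untreated cells and cells given doxycycline at 1, 2.5, 5 and 25 ng/ml, each dose as a single library without replicates. The study's methods derive WT6 from CN34-BrM2, a brain metastatic breast cancer line, whereas the sample labels give MDA231 for every library. The libraries set beside WT6 came from WT10, a second wild type clone, and MUT3, a clone that carries the truncated mutant RBM47-I281fs, both derived from the brain metastatic MDA231 line 231-BrM2 and treated with the same doses. None of the sequenced libraries came from cells without a transgene, so within these data an effect of the drug itself cannot be told apart from one of the transgene in WT6.

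RBM47 is an RNA-binding protein with RNA recognition motifs. It is known for binding introns and 3′ untranslated regions, where it can alter splicing and stabilise transcripts, and for its part as a cofactor of RNA editing. In breast cancer it has been linked to loss in metastatic cells. One of its described targets is the mRNA of DKK1, a secreted antagonist of Wnt signalling.

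The 5 WT6 libraries held between 16382294 and 23374298 reads on genes, so that 3 reads were worth between 2.56 and 4.09 in the deposited normalised read count. In such bulk samples fewer cells of a kind and less RNA per cell cannot be told apart. Of 23368 genes, 13269 had a mean of at least 10 in WT6 and were tested. Reads that HTSeq assigned to no feature, which need not lie outside genes, numbered 1.38 per read on a gene in untreated cells and 1.497 at 25 ng/ml. Over 13547 genes, untreated WT6 had a correlation of 0.872 with untreated WT10 and 0.849 with untreated MUT3 on the log2 scale, and WT10 and MUT3 had one of 0.963. More than 16-fold differences separated WT6 from WT10 at 376 genes and WT10 from MUT3 at 58. Some keratin and claudin-low markers were high in every WT6 library: VIM, an intermediate filament of mesenchymal cells, lay between 50755 and 58065 and KRT18 between 10036 and 24036. Others were too low to be tested. Of 15 basal and claudin-low markers 11 reached the mean of at least 10, and of 15 breast epithelial and luminal markers 10 did. CDH1, the epithelial cadherin, stayed at 19.9 or below. Of 16 leukocyte markers 7 were at 0 in all 5 libraries, and the summed level of that list ran from 2157 to 2943, most of it CD68.

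RBM47 itself did not follow the dose in order. Untreated WT6 cells had a level of 258, which became 3137, 8094, 3966 and 10425 at the doses of 1, 2.5, 5 and 25 ng/ml. The library at 5 ng/ml was thus 0.490 times the one at 2.5 ng/ml (95% counting interval 0.470 to 0.511, which covers counting error only). On the log2 scale this step was -1.03 as deposited. It was -0.74 with each library corrected for its trends in transcript length and GC content. WT10 and MUT3 showed no such drop, with ratios of 2.88 and 2.82 over the same step. The dose slope of RBM47, in log2 units per unit of log2(dose + 1), was 0.95 ± 0.27 (SE, 5 libraries; limma adjusted p = 0.0296), and this is the transgene together with the endogenous gene at chromosome 4, 40425284 to 40632892 (hg19), where 3 annotated genes lie on the other strand.

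DKK1, at chromosome 10, 54074041 to 54077802, rose with every dose. Its level was 13399, 17147, 21688, 33355 and 40994 from untreated to 25 ng/ml, and the step where RBM47 dropped was one of the rises. The slope was 0.37 ± 0.06 (adjusted p = 0.00480) and 0.28 once each library had been corrected for its trends in transcript length and GC content, a step called removal from here on. IL8, the neutrophil chemokine at chromosome 4, 74606236 to 74609433, likewise rose at each step, from 142 to 168, 267, 534 and 1354. Its slope of 0.75 ± 0.06 was 0.72 after that removal. In MUT3 the slopes of DKK1 and IL8 were 0.00 and 0.09, and the differences from WT6 had adjusted p = 0.000547 and adjusted p = 0.000445.

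**Figure D1:**
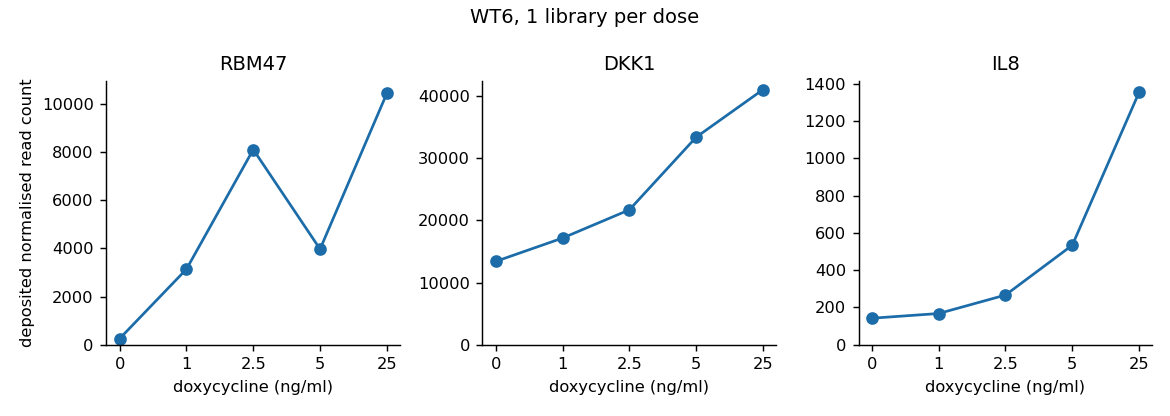
Deposited normalised read count (vertical axis, from 0) of RBM47, DKK1 and IL8 against doxycycline dose in ng/ml (horizontal axis, doses evenly spaced) in the 5 WT6 libraries, 1 point per library. RBM47 falls from 8094 to 3966 between 2.5 and 5 ng/ml, while DKK1 and IL8 rise at every step.

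Across all genes tested, 4158 of 13269 had a dose slope in WT6 at adjusted p under 0.05 (31.3%). Of these 2177 rose (16.4%) and 1981 fell (14.9%). In WT10 fitted alone 28.1% of genes had a slope (14.3% rising, 13.8% falling), and in MUT3 1.33% (0.856% rising, 0.473% falling). These calls rest on the library at 25 ng/ml: without it no gene passed in limma, with 3042 at an unadjusted p under 0.05, and without the library at 5 ng/ml the count was 6499. The fitted error is the scatter of 5 libraries about a line, which may be technical.

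Most of the change came at the higher doses, also over the step where RBM47 fell. Past 1.5-fold of untreated cells, 356 genes were up at 1 ng/ml (2.68%) and 551 at 2.5 ng/ml (4.15%), against 2630 at 5 ng/ml (19.8%) and 3205 at 25 ng/ml (24.2%). The numbers down were 179 (1.35%), 287 (2.16%), 1984 (15%) and 2552 (19.2%). Of the 2177 rising genes, 1207 made their largest step between 2.5 and 5 ng/ml, 764 between 5 and 25 ng/ml, 136 between 1 and 2.5 ng/ml and 70 at the first step. The falling genes divided likewise into 1154, 750, 66 and 11. A line on dose left a smaller residual than a line on the log2 RBM47 value for 4131 of the 4158 called genes. These genes were called for their fit on dose in the same libraries, so that count was nearly fixed in advance. Over all 13269 genes tested, which include the called ones, the number was 11320 (85.3%). With log2 RBM47 in place of dose no gene passed in limma (287 at an unadjusted p under 0.05).

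The change at 5 and 25 ng/ml followed transcript length. Genes were put into 5 equal groups by the length of an annotated transcript, with median lengths from 1197 to 7558 bases. At 1 and 2.5 ng/ml the group medians lay between -0.05 and 0.03 on the log2 scale. At 5 ng/ml they ran from 0.62 in the shortest group through 0.18, -0.04 and -0.22 to -0.41 in the longest, and at 25 ng/ml from 0.60 to -0.44. In the shortest group 916 genes rose and 41 fell, and in the longest 101 rose and 828 fell. Rising genes had a median transcript length of 1907 bases, 6 exons and 54.7% GC, falling genes 5278 bases, 15 exons and 45.1% GC. Over all doses the medians of the length groups lay between -0.07 and 0.07 in WT10 and between -0.05 and 0.05 in MUT3. By GC content, from the lowest to the highest of 5 such groups, the medians ran from -0.22 to 0.34 in WT6 at 25 ng/ml. In WT10 they ran from 0.09 to -0.06 at that dose and from 0.21 to -0.26 at 5 ng/ml. At 5 ng/ml the lowest and highest groups of WT6 were at 0.03 and 0.06. At 2.5 ng/ml WT6 ran from 0.09 to -0.06, the same order as WT10 (0.16 to -0.21). Removing the length and GC trends from each library left 5065 called genes among the 12667 with an annotated transcript (40.0%), 2584 rising (20.4%) and 2481 falling (19.6%). Of the 4002 genes called before and tested again, 2949 were called in the same direction after removal and 0 in the opposite one. The counts of gene lists below are to be read against the shares of all genes. These were 16.4% rising and 14.9% falling as deposited, and 20.4% and 19.6% after removal. Reads assigned to no feature were also most frequent in the WT6 libraries at 5 and 25 ng/ml, and their part in the length trend was not tested.

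**Figure D2:**
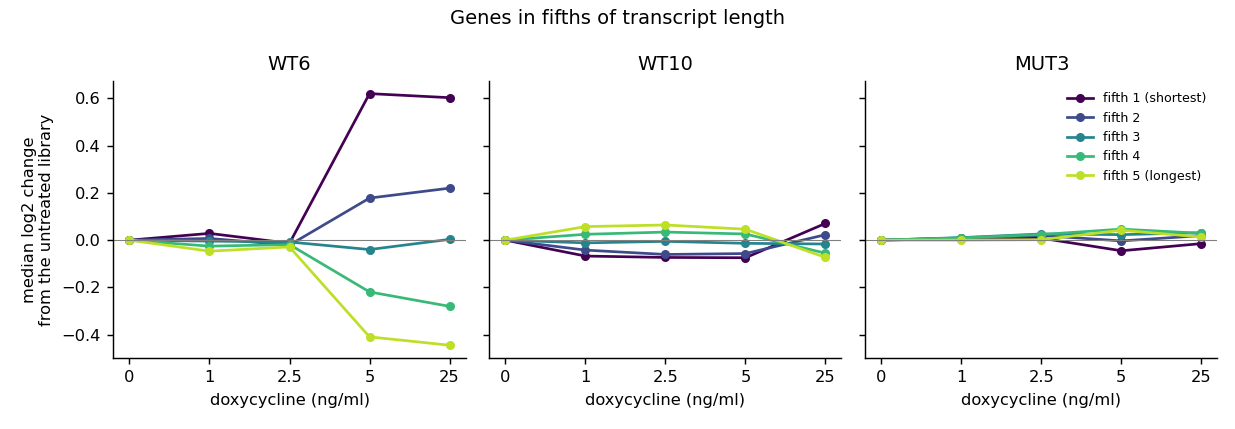
Median log2 change from the untreated library of the same clone (vertical axis) against doxycycline dose in ng/ml (horizontal axis, evenly spaced), for genes in 5 equal groups of transcript length, one panel per clone. In WT6 the lines fan out at 5 and 25 ng/ml, from 0.62 for the shortest group to -0.41 for the longest at 5 ng/ml, and stay close to 0 at 1 and 2.5 ng/ml.

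The genes with the largest slopes that rose at every step, at a mean of at least 100 and with a call before and after removal, included the inflammatory mediators SAA2, CXCL1, IL1A and IL8. SAA2, an acute phase apolipoprotein, read 49.3, 57.6, 103, 584 and 1553 over the 5 doses (slope 1.18 ± 0.14). It shares near-identical stretches with SAA1, so their reads may be divided uncertainly. CXCL1, a neutrophil chemokine, read 54.8, 75.1, 78.4, 342 and 1041 (slope 1.01 ± 0.11). IL1A, the membrane-bound interleukin 1, read 26.3, 50.4, 149, 283 and 496 (slope 0.82 ± 0.11) and was already far above its untreated level at 2.5 ng/ml. The other members of this group were HSPA6, a heat shock protein that is silent in many unstressed cells, TRIML2, the keratin KRT6A, RRAD, a small GTPase, FAM49A, C13orf15 and IL8.

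HSPA6 was at 7.67 in untreated cells and 43.2, 107, 223 and 629 at the 4 doses, a slope of 1.06 ± 0.12, and it shares near-identical stretches with other HSP70 genes. Among the 29 heat shock chaperones tested 4 rose and 1 fell, shares of 13.8% and 3.45% against 16.4% and 14.9% of all genes, and after removal 5 rose and 7 fell. The median slope of the list was -0.005, and -0.015 after removal, whereas the slopes printed here are all positive. HSPA1A, another HSP70 gene, read 197, 220, 234, 525 and 716 (slope 0.44), and the small heat shock proteins HSPB8, HSPB1 and CRYAB had slopes of 0.59, 0.41 and 0.66. DNAJB1, an HSP40 partner, read between 2537 and 3231 with no call. KRT6A, a keratin of wounded and hyperproliferative epithelium, went from 41.6 to 710 and C13orf15 from 160 to 1632.

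The 10 genes with the largest falling slopes under the same limits (a mean of at least 100, a call before and after removal, no step against the direction) included several of mitosis. GAS2L3, a cytoskeletal linker of the spindle midzone and midbody, read 271, 221, 181, 27.2 and 22.4 (slope -0.88 ± 0.18). CASC5, the kinetochore scaffold KNL1, read 937, 908, 784, 223 and 156 (slope -0.63 ± 0.12). KIF18B and KIF14, motor proteins of mitosis and cytokinesis, fell from 2220 to 473 and from 1490 to 318. GAS2L3, CASC5 and KIF18B made most of their fall between 2.5 and 5 ng/ml, whereas KIF14 fell further from 5 to 25 ng/ml.

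EGFR, the receptor of epidermal growth factor, read 5971, 5720, 5342, 1807 and 1484, a slope of -0.50 ± 0.10. NUP210, a membrane protein of the nuclear pore, read 415, 376, 269, 147 and 56.1. KLC1, a kinesin light chain, fell from 2648 to 537, but 5 annotated genes overlap it on the other strand, and whether the libraries keep strand is not given. The remaining genes of this group were FAM196B, KIAA0895 and RAD54L2. All 10 have annotated transcripts of 2550 bases or more, and a call after removal was part of how they were chosen.

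**Figure D3:**
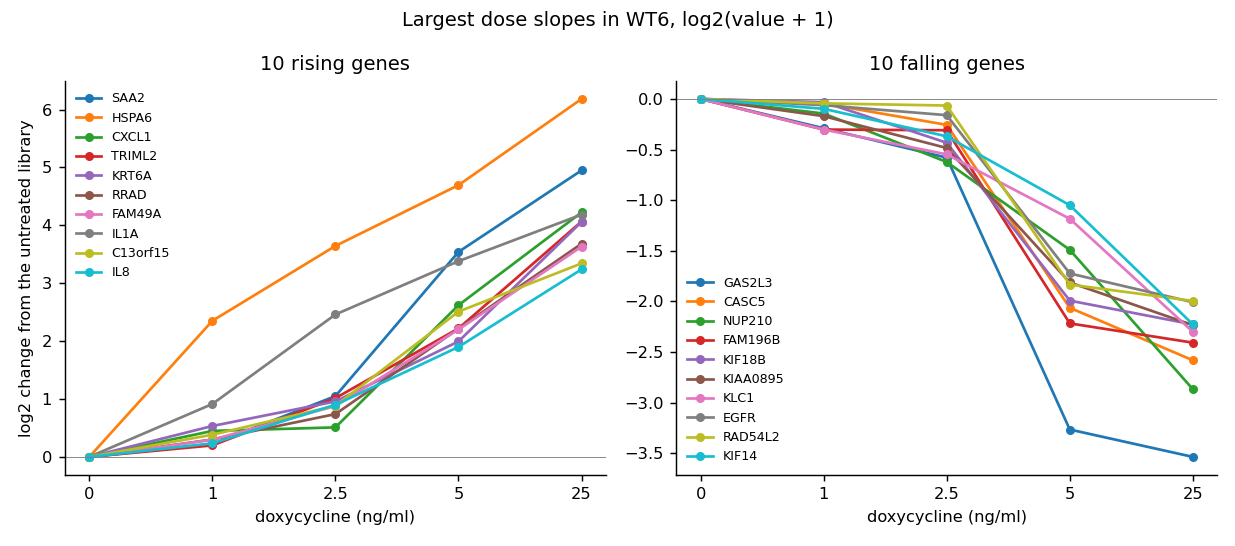
Log2 change from the untreated library (vertical axis, on the log2(value + 1) scale) against doxycycline dose in ng/ml (horizontal axis, evenly spaced) for the 10 rising and 10 falling genes of WT6 with the largest slopes among those at a mean of at least 100, called before and after removal and with no step against their direction, 1 point per library. HSPA6 and IL1A rise from 1 ng/ml on, and most falling genes stay near 0 up to 2.5 ng/ml.

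Most of the inflammatory cytokines and chemokines tested rose. Of 24 members 15 were tested, 9 rose and 1 fell, with a median slope of 0.38 against 0.01 for all genes tested. After removal the counts were again 9 and 1, at a median of 0.26. Beside CXCL1, IL1A and IL8, the largest slope was that of IL32, a cytokine of lymphocytes and epithelium, which read 37.3, 66.9, 58.0, 185 and 325 (slope 0.67, adjusted p = 0.00403). IL6 read 28.5, 29.9, 34.1, 47.7 and 112 and CCL20 355, 370, 432, 740 and 1095. CSF1, the macrophage growth factor, was the member that fell, from 735 to 335, and LIF and IL11 were between 823 and 1038 and between 4750 and 6589 with no call. The median log2 change of the list over the 4 doses was 0.06, 0.25, 0.97 and 1.62. After removal it was 0.06, 0.16, 0.30 and 1.15.

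The promoters of these cytokines are shown because most of the tested genes rose. Motif counts take in every tested member with a promoter, whether its slope was called or not. They describe the chosen list and not a response to dose, and no test was made. A kappaB motif, written GGNNTTTCC and searched on both strands from 250 bases before to 50 bases after the start, was present in 7 of the 12 tested cytokine genes whose promoter was in the RefSeq table (GRCh38.p14). It was present in 6.67% of the 10163 tested genes with a promoter and in 6.26% of all 27305 promoters. Of the 7 tested acute phase and complement genes with a promoter in the table, 0 held it. The matching stretches nearest the start, with the motif in capitals, lay at chr4:73740470-73740494 (IL8), chr4:73869332-73869356 (CXCL1) and chr16:3065327-3065351 (IL32), all on the plus strand. IL1A had no match in this window.
IL8: caaatcgtGGAATTTCCtctgacat
CXCL1: ggggctccGGGCTTTCCagccccaa
IL32: ccgagtctGGACTTTCCctctgccc

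Genes of NF-kB, the transcription factor family that drives many of these cytokines, had 3 rising and 1 falling member of 18, all tested (median slope 0.07). The rising share was 16.7%, near the 16.4% of all genes, and after removal 8 rose and 4 fell. RELB, a subunit of the noncanonical arm, read 284, 320, 400, 501 and 855 (slope 0.35), and NFKBIE, an inhibitor, rose from 239 to 614. NFKB2 rose with a slope of 0.14, and BIRC2, a ubiquitin ligase of that pathway, fell from 5303 to 2407. NFKBIA and TNFAIP3, feedback inhibitors, had slopes of -0.01 and 0.01 with no call.

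Acute phase and complement genes had 8 rising and 0 falling members of 13 tested (of 20), with a median slope of 0.25, and 7 and 1 after removal. SAA1, the serum amyloid at a far higher level than SAA2, read 5254, 5757, 7885, 23559 and 36253 (slope 0.67). C3, the central complement protein, was between 585 and 717 up to 5 ng/ml and 1799 at 25 ng/ml. CFB and C1S, complement proteases, rose from 12.1 to 110 and from 18.6 to 77.2. C3, CFB and C1S were each highest in the library at 25 ng/ml, and at 2.5 ng/ml CFB and C1S were at 10.2 and 18.8.

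Of 39 interferon-stimulated genes tested (of 43), 12 rose (30.8%) and 2 fell (5.13%), against 16.4% and 14.9% of all genes. After removal 8 rose and 2 fell, and the rising share was then near the 20.4% of all genes. The median slope of these interferon-stimulated genes was 0.10 both times. Their median log2 change was 0.02 at 5 ng/ml but 0.53 at the highest dose, and without that last library their median slope was -0.01. No gene of the whole table passed in limma without it (3042 at an unadjusted p under 0.05), so a count gives nothing about the list there. IFI6, an antiviral mitochondrial protein, read 206, 202, 212, 516 and 789, IRF9, the DNA-binding subunit of the interferon-activated complex, 214, 227, 213, 330 and 684, and ISG15, a ubiquitin-like modifier, 1232, 1352, 1281, 2849 and 3494. IFI27 and OAS1 rose at low levels, to 34.9 and 22.4. HERC5 fell from 230 to 93.4, and IFIT1 read between 69.1 and 142 with no call.

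Genes of MHC class I presentation had 10 rising and 2 falling members of 15 tested (median slope 0.20), and 7 and 0 after removal (median 0.11). HLA-B read 529, 573, 503, 868 and 1398 (slope 0.33), PSMB9, an immunoproteasome subunit, 125, 109, 123, 222 and 333 (slope 0.36), and PSMB8 415, 455, 426, 732 and 993. B2M, the shared light chain, went from 6569 to 11334 with a peak of 12641 at 5 ng/ml. At 2.5 ng/ml HLA-B, HLA-C and PSMB9 were at or below their untreated level, and reads of the HLA genes may be divided uncertainly among near-identical copies. TAP2 and ERAP1, a peptide transporter subunit and a peptide trimmer, fell as deposited and were not called after removal.

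Of 25 Wnt receptors and antagonists 16 were tested, 2 rose and 7 fell (median slope -0.17), and 2 and 5 after removal (median -0.05). The rising members were the antagonist DKK1 and its relative DKK3, which read 24.1, 51.5, 58.0, 95.4 and 146 (slope 0.48). The falling members were receptors and coreceptors: ROR1 read 596, 494, 563, 113 and 152, LRP5 2174, 2229, 1720, 1005 and 902, FZD7 466, 496, 443, 313 and 258, and RYK, FZD5, FZD6 and LRP6 fell as well. ROR1 has 5 annotated genes on its other strand. Among the feedback targets of the pathway AXIN2 read between 16.2 and 26.3 and MYC between 7705 and 8889, both with no call.

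Genes of mitosis fell together, some of them from low doses. Of the 51 genes of G2/M and mitosis, all tested, 0 rose and 44 fell, and 0 and 49 after removal, at a median slope of -0.27 both times. The median log2 change over the 4 doses was -0.08, -0.36, -0.54 and -1.21. With the libraries at 0, 1 and 2.5 ng/ml alone, where 1.69% of all genes fell and 2.77% rose, 27 of the 51 fell and 0 rose, from 1 residual degree of freedom per gene. CENPE, a kinesin of chromosome alignment, read 3120, 2880, 2246, 1582 and 720 (slope -0.47), CENPF, a kinetochore protein, 6421, 5721, 4207, 2947 and 1651 (slope -0.44), and INCENP, the scaffold of the chromosomal passenger complex, 2333, 2246, 1793, 847 and 639 (slope -0.45). MKI67, the proliferation marker, fell from 13326 to 4592 and TOP2A, topoisomerase of condensing chromosomes, from 14112 to 4569. UBE2C, PTTG1 and AURKB, which have short transcripts, were each highest at 5 ng/ml and had no call as deposited, and all 3 fell after removal.

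The promoters of the mitotic genes are shown because these genes fell together, with counts that again describe the chosen list and not a response to dose. The cell cycle homology region CHR, written TTTGAA and searched on both strands over the same window, was in 31 of the 44 mitotic genes with a promoter in the table, against 9.65% of tested genes and 15.4% of all promoters. An E2F motif, TTTNNCGC, was in 7 of these 44 and in 25 of the 44 genes of G1/S and DNA replication with a promoter, against 10.7% of tested genes. The stretches with the CHR in capitals lay at chr1:200620737-200620758 on the minus strand (KIF14, where it reads in the opposite orientation), chr11:62123993-62124014 (INCENP) and chr1:214603227-214603244 (CENPF), the last cut by the end of the window. CENPE had no match.
KIF14: ggcgcccaTTCAAAttgcggcc
INCENP: ccttcagtTTTGAAaatcatag
CENPF: gcgggcagTTTGAAttag

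Of 54 tested genes of G1/S and DNA replication (of 55), 25 fell and 1 rose (median slope -0.12), and 40 and 0 after removal (median -0.14). POLA1, the catalytic subunit of primase-polymerase alpha, read 936, 869, 717, 550 and 331, RFC1, of the clamp loader, 1808, 1637, 1587, 1093 and 792, MCM10 1894, 1769, 1663, 1204 and 863, and E2F2 591, 482, 405, 308 and 268. E2F1 stayed between 2435 and 2631 and CCNE1 between 318 and 358, both with no call. CCND3, a G1 cyclin, was the member that rose, from 6082 to 9070, and it was not called after removal.

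Of 32 genes of homologous recombination and the Fanconi pathway, 20 fell and 0 rose (median slope -0.17), and 20 and 1 after removal. BARD1, the partner of BRCA1, read 356, 315, 338, 88.6 and 56.1 (slope -0.62), BRCA2 720, 711, 679, 300 and 224, BRIP1 746, 665, 704, 414 and 263, and FANCD2 1301, 1272, 1095, 777 and 539. From the 0, 1 and 2.5 ng/ml libraries alone 0 of the 32 were called. In that setting 1.69% of all genes fell and 2.77% rose, so 0 among 32 genes is near the background.

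The nuclear pore complex had 18 falling and 1 rising member of 29 tested (median slope -0.18), and 24 and 0 after removal (median -0.11). Beside NUP210, the scaffold nucleoporins NUP133, NUP188 and NUP155 fell from 1763 to 512, from 9432 to 3777 and from 2008 to 822. SEC13, a subunit that the pore shares with secretory vesicles, was the one that rose, from 2838 to 4590.

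**Figure D4:**
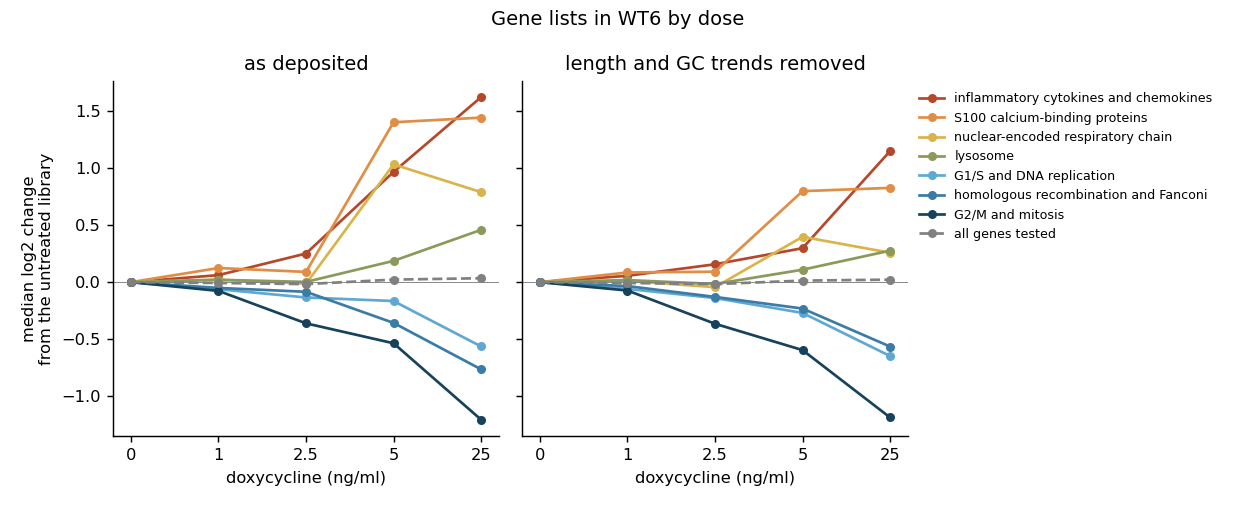
Median log2 change from the untreated library (vertical axis) over the tested members of 7 gene lists and over all genes tested, against doxycycline dose in ng/ml (horizontal axis, evenly spaced) in WT6, as deposited and after removal. The mitotic list falls from -0.08 to -1.21 with similar values in both panels, while the respiratory chain list is highest at 5 ng/ml and drops to 0.26 at 25 ng/ml after removal.

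The S100 proteins and the respiratory chain, whose transcripts are short, were near their untreated level up to 2.5 ng/ml. The S100 calcium-binding proteins, of a median transcript length of 561 bases, had 9 rising and 0 falling members of 10 tested (median slope 0.34), and 7 and 0 after removal (median 0.19). S100A6 read 23148, 25960, 23419, 62449 and 72481, S100P 829, 888, 778, 2427 and 3715 (slope 0.53), S100A13 799, 952, 1019, 2244 and 2946 (slope 0.44), and S100A3 and S100A4 reached 248 and 159 from 48.2 and 38.4. The nuclear-encoded respiratory chain, of a median length of 804 bases, had 29 rising and 1 falling of 75 (median slope 0.22), and 18 and 1 after removal (median 0.07). ATP5I read 1021, 1177, 1058, 3113 and 2886, NDUFC2 357, 367, 433, 956 and 955, and NDUFA1 982, 990, 1030, 2433 and 2241. Without the library at 1 ng/ml 8 respiratory chain genes rose, without that at 0 or at 25 ng/ml 0, and without that at 5 ng/ml 67. Of all 13269 genes, 1094 rose without 1 ng/ml, 615 without 0 ng/ml and 3535 without 5 ng/ml. No gene passed in limma without 25 ng/ml (3042 at an unadjusted p under 0.05), so the 0 there gives nothing about the list.

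Of 54 lysosomal genes tested, 22 rose and 1 fell (median slope 0.09), and 21 and 2 after removal. NEU1, a sialidase, read 1183, 1305, 1465, 2110 and 3361 (slope 0.34), ATP6V0E1, a subunit of the proton pump, 2021, 2160, 2185, 4330 and 4435, and CTSK, a cathepsin, rose at a low level from 27.4 to 86.0. NPC1, which exports cholesterol from lysosomes, fell from 6097 to 2389.

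Of 26 genes of cholesterol synthesis and its regulation 11 rose and 4 fell, and 13 and 4 after removal. The synthetic enzymes MSMO1 and HMGCS1 read 3202, 3668, 5105, 6687 and 8428 and 2228, 2514, 3999, 4294 and 5544, and both were above untreated cells at 2.5 ng/ml. TM7SF2, a sterol reductase, rose from 329 to 801 with the main rise at 25 ng/ml. The regulators SREBF1 and SREBF2 were among the falling members, and SREBF2 read 3731, 3649, 3248, 1228 and 1491 (slope -0.35).

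Of 22 caspases and death receptor genes tested, 7 rose and 1 fell, and 8 and 3 after removal. HTATIP2 read 993, 1180, 1567, 2696 and 3992 (slope 0.46), TRADD, an adaptor of the TNF receptor, 219, 218, 292, 414 and 625, and CASP10 rose from 69.0 to 121. Of 21 p53 targets, 4 rose (19.0%, near the 16.4% of all genes) and 0 fell: PHLDA3 from 52.6 to 229, TP53I3 from 843 to 2615, BBC3, the BH3 protein PUMA, from 48.2 to 126, and CDKN1A, the p21 inhibitor of cyclin-dependent kinases, from 4453 to 7910. MDM2 read between 952 and 1418 with no call, and after removal 8 of the targets rose and 2 fell.

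The ERBB receptors and their ligands had 3 rising (25.0%) and 4 falling (33.3%) members of 12 tested, against 16.4% and 14.9% of all genes. After removal 4 rose and 4 fell. Beside EGFR, the ligands HBEGF and AREG fell, from 1036 to 518 and from 5527 to 2944, and EREG, another ligand, rose from 3117 to 4912. ERBB3 rose at a low level, from 20.8 to 68.5. Of 22 feedback genes of MAPK signalling, 9 fell (40.9%) and 3 rose (13.6%), against 14.9% and 16.4% of all genes. SPRY4 read 3763, 3422, 2712, 1999 and 1462, ETV1 fell from 564 to 257 and SPRED1 from 2178 to 1056, while DUSP14 rose from 1733 to 3231. After removal 11 fell and 4 rose.

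Immediate early and AP-1 genes had 10 rising and 4 falling members of 23 tested, and 7 and 5 after removal. ARC read 47.1, 80.3, 135, 163 and 340 (slope 0.57), ATF3 92.1, 101, 97.2, 188 and 336 (slope 0.44), and JUNB 1212, 1320, 1385, 1948 and 3308 (slope 0.33). FOSL2, an AP-1 subunit, fell from 3288 to 1248. The YAP/TAZ list, with its TEAD partners and targets, had 11 falling and 2 rising of 30, and 13 and 4 after removal. LATS1, the kinase that restrains YAP, read 299, 296, 319, 95.4 and 79.7, and AMOTL2, DOCK5 and TEAD1 fell from 4343 to 1814, from 678 to 315 and from 6734 to 3008. The targets CTGF and CYR61 read between 5476 and 7457 and between 28427 and 37966 with no call.

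Of 18 epithelial genes tested, 6 rose and 1 fell, and 8 and 2 after removal. CLDN7, a tight junction claudin, read 152, 216, 182, 482 and 800 (slope 0.54), and the keratins KRT19, KRT18 and KRT8 reached 3994, 24036 and 31010 from 1507, 10240 and 13843. Of 19 mediators of brain metastasis, 5 rose (26.3%) and 4 fell (21.1%), against 16.4% and 14.9% of all genes. After removal the counts were again 5 and 4, near the 20.4% and 19.6% of all genes. ANGPTL4, a secreted lipase inhibitor, read 4547, 6901, 8684, 11363 and 15008 (slope 0.37), SERPINB2 rose from 20.8 to 69.8 and L1CAM from 84.4 to 182, whereas LTBP1, which tethers latent TGF-beta, fell from 4413 to 1614.

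**Figure D5:**
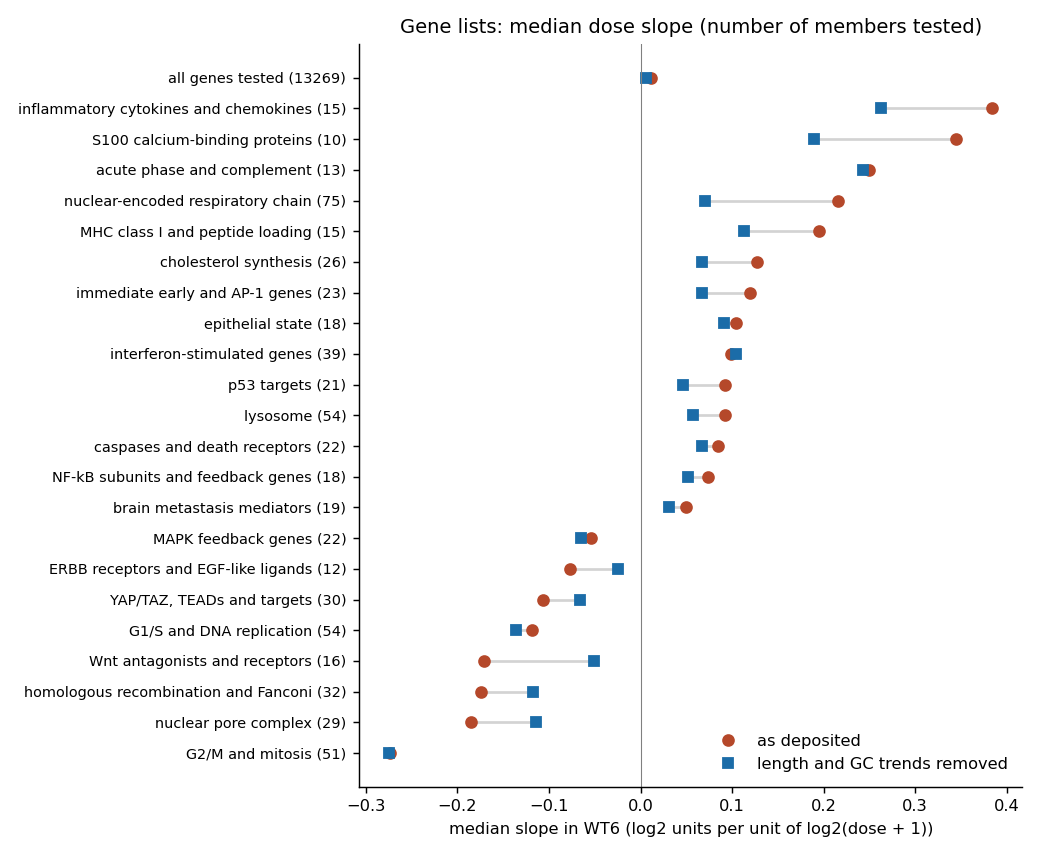
Median dose slope in WT6 (horizontal axis, log2 units per unit of log2(dose + 1)) of each described gene list (vertical axis, number of members tested in parentheses), as deposited (circles) and after removal (squares). The mitotic list stays at -0.27 in both, the cytokine list moves from 0.38 to 0.26 and the respiratory chain list from 0.22 to 0.07.

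The 5 genes at a mean of at least 100 that were most above untreated cells at 1 ng/ml were RBM47, HSPA6, VSTM1, INSC and LCN2, with log2 changes from 3.60 to 1.02. VSTM1 and INSC continued upward to 214 and 343 from 16.4 and 74.5, whereas LCN2, a siderophore-binding protein, read 62.5, 128, 20.5, 104 and 294 with no call. The 5 most below were DLEU2, KIAA1467, RPGRIP1L, ASNS and LOC100128054, at log2 changes of -0.69 to -0.59. ASNS, asparagine synthetase, read 837, 544, 1784, 1798 and 1576, and RPGRIP1L was the one of them whose slope was called as falling. These steps compare single libraries, and no test was made.

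At a mean of at least 100, 261 genes rose by at least 0.5 log2 units to 2.5 ng/ml. Of these, 63 beside RBM47 then fell at 5 ng/ml and rose at 25 ng/ml. They are here called shaped like RBM47, though only the direction of the later steps was set, not their size. The share of all genes with such a fall and rise was not counted. The largest falls at 5 ng/ml were those of HIPK3, IL7R, GPR176, LOC100288077 and TNIK. HIPK3, a kinase, read 357, 464, 548, 147 and 171, and IL7R, the interleukin 7 receptor, 307, 345, 514, 165 and 201. At 5 and 25 ng/ml both lay below their untreated level, whereas RBM47 stayed above its own at every dose. TNIK, a kinase of Wnt signalling, read 193, 281, 402, 217 and 310. None of the 5 had a dose slope as deposited, and HIPK3, IL7R and TNIK have transcripts of 4584 bases or more.

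WT6 differed from WT10 at 1817 of 12644 genes, with a slope above that of WT10 for 920 (7.28%) and below for 897 (7.09%). Without the library at 25 ng/ml of WT6 73 genes passed, and without that dose in all clones 7. The mitotic list had 24 genes with a lower slope in WT6 and 0 with a higher one, the immediate early list 8 higher and 1 lower, and the S100 list 7 higher and 0 lower. The largest positive differences at a mean of at least 100 in each clone were those of FBXO32, TRIML2, LMCD1, TAGLN and APOC1. FBXO32, a ubiquitin ligase of muscle atrophy, went from 62.5 to 303 in WT6, where its slope was 0.53 above that of WT10 (adjusted p = 0.00671). The largest negative ones were those of GAS2L3, BMPER, LOC100652999, NOMO3 and MAN2A1. BMPER, a modulator of BMP signalling, fell from 546 to 201 in WT6 and had a slope of 0.27 in WT10. NOMO3 is one of several near-identical copies, so its reads may be divided uncertainly. Parental line and the dose response of RBM47 both differ between the clones and cannot be told apart. Against MUT3, 2305 genes had a higher slope in WT6 (18.2%) and 2575 a lower one (20.4%).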

How the data were processed

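Polyadenylated RNA of 15 cultures was sequenced. The authors aligned reads with STAR to hg19 (GRCh37), counted them with HTSeq 0.5.4 at default settings, which count by strand, and deposited the counts divided by DESeq size factors, here called normalised read count signal. Whether the libraries keep strand, and which annotation was used, is not given in the sources used here. All values (100%) came out as whole reads within 0.01. The 5 HTSeq tallies stayed out of tests.

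Within WT6, log2(value + 1) of genes with a mean of at least 10 was fitted on log2(dose + 1) with limma 3.58.1 in R 4.3.3 (vooma weights, Benjamini-Hochberg, two-sided). In the step called removal, each library was corrected by splines for its trends in length and GC. Clones were compared in 1 fit over all libraries. Transcripts came from GENCODE release 44 on GRCh37, matched for 91.7% of genes. The fits were tested on simulated data. Alternatives included edgeR 4.0.16 and DESeq2 1.42.0 on the recovered reads. Named genes were RBM47, DKK1 and IL8, the 10 largest slopes in each direction without a step against it, up to 4 called members per list, the 5 largest steps to 1 ng/ml in each direction, the 5 genes shaped like RBM47 with the largest fall at 5 ng/ml and the 5 largest differences from WT10 in each direction. Other list members were chosen for their role or after their values were seen. Some list members are not reported here. Members and lists were chosen with earlier results of these data known.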

Additional observations from a re-analysis of the deposited data

Results flagged for a closer look

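Of 122 named genes 113 were in the fit over the 3 clones, and for 60 of these the dose slope differed between WT6 and WT10 at limma adjusted p values from 0.000351 to 0.0492. The slope was higher in WT6 for 29 and lower for 31. Many of these genes were named for their slope in WT6 or for this difference, so the count is a description. Over all 12644 genes in that fit 1817 differed, 920 higher in WT6 (7.28%) and 897 lower (7.09%), and 73 without the WT6 library at 25 ng/ml. For 12 the slope of WT10 had the opposite sign. Of the 58 with an annotated transcript all 58 kept the sign of the difference after removal of length and GC trends, and 45 kept their call. After removal the remaining 13 had differences of CASC5 -0.31, IL32 0.16, PSMB9 0.12, PSMB8 0.04, CENPE -0.12, FANCD2 -0.08, TM7SF2 0.23, TRADD 0.10, ETV1 -0.06, DUSP14 0.06, DOCK5 -0.12, TEAD1 -0.06 and ANGPTL4 0.11, at adjusted p values from 0.0510 to 0.324. The values below are, as deposited, the WT6 slope minus the WT10 slope, in log2 units per unit of log2(dose + 1).

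Among the genes with the largest dose slopes in WT6, the differences were HSPA6 0.73, TRIML2 0.52, RRAD 0.41, C13orf15 0.88, GAS2L3 -0.66, CASC5 -0.43, NUP210 -0.31, FAM196B -0.45, KLC1 -0.21, EGFR -0.37 and KIF14 -0.33. Among the genes shaped like RBM47 or named for their distance from WT10, the differences were IL7R -0.81, LOC100288077 -0.35, FBXO32 0.53, LMCD1 0.49, TAGLN 0.45, APOC1 0.44, BMPER -0.59, LOC100652999 -0.49, NOMO3 -0.48 and MAN2A1 -0.47. Among inflammatory, interferon and antigen presentation genes, the differences were IL32 0.30, RELB 0.26, NFKBIE 0.22, BIRC2 -0.22, SAA1 -0.55, IRF9 0.29, PSMB9 0.25, HLA-B 0.26 and PSMB8 0.18. Among genes of replication, mitosis, DNA repair and the nuclear pore, the differences were POLA1 -0.20, RFC1 -0.19, CENPE -0.26, INCENP -0.23, CENPF -0.24, BRCA2 -0.33, FANCD2 -0.15, NUP133 -0.20 and NUP155 -0.25. Among S100 proteins, lipid handling, death receptor signalling and p53 targets, the differences were S100A3 0.37, S100A13 0.41, S100A4 0.62, NPC1 -0.21, TM7SF2 0.36, TRADD 0.25, PHLDA3 0.44 and TP53I3 0.30. Among growth factor signalling, immediate early genes, YAP partners and epithelial genes, the differences were ERBB3 0.41, HBEGF -0.17, SPRY4 -0.19, ETV1 -0.17, SPRED1 -0.23, DUSP14 0.16, ARC 1.03, JUNB 0.27, DOCK5 -0.22, TEAD1 -0.16, CLDN7 0.32, KRT19 0.30 and ANGPTL4 0.22.

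ARC, an immediate early gene of neurons and fibroblasts, rose in WT6 from 47.1 to 340 while its slope in WT10 was -0.47. IL7R, which had no dose slope in WT6, had one of 0.62 in WT10. The values come from single libraries of clones with different parental lines.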

How the results depend on the processing

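The number of WT6 genes with a dose slope, 4158, stayed between 3763 and 4460 under other scalings (TMM, upper quartile), other pseudocounts and filters, no precision weights, ranked doses, edgeR, DESeq2 and removal of the length trend alone. It was 978 on the linear dose (547 rising, 431 falling), 7571 in the fit over all 15 libraries (3948 and 3623) and 591 without 5 and 25 ng/ml (367 and 224). On the log2 RBM47 value 0 genes passed in limma, 0 rising and 0 falling (287 at an unadjusted p under 0.05), and for any doxycycline against none likewise 0 (46 unadjusted). Leaving out 1 library gave between 0 (without 25 ng/ml, 3042 unadjusted) and 6499 (without 5 ng/ml), with 0 to 3535 rising and 0 to 2964 falling. It gave 1057 without the untreated library and 1976 without 1 ng/ml. The causes were not tested.

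After correction for length and GC the count of 5065 was 1143 without 5 and 25 ng/ml, and between 0 (without 25 ng/ml, 3368 unadjusted) and 6500 (without 5 ng/ml) with 1 library left out. The WT6 minus WT10 count of 1817 was 7 without 25 ng/ml in all clones, 3080 without 5 ng/ml in all clones, 0 on the log2 RBM47 value, and between 73 (without WT6 25 ng/ml) and 3714 (without WT6 5 ng/ml) with 1 WT6 library left out, among them 763 without 1 ng/ml. The WT6 minus MUT3 count of 4880 was 146 without 25 ng/ml in all clones and 0 on the log2 RBM47 value. With 1 WT6 library left out it lay between 3744 (without WT6 25 ng/ml) and 6148 (without WT6 5 ng/ml). The difference between the longest and shortest of 5 groups at 5 ng/ml, -1.03 by transcript length, was -0.66 by genomic span.

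From 0, 1 and 2.5 ng/ml alone 10 named slopes changed sign: FBXO32 -0.17, MAN2A1 0.0054, CFB -0.051, PSMB9 -0.022, HLA-B -0.034, HLA-C -0.027, S100P -0.044, CTSK -0.026, TM7SF2 -0.0072 and LATS1 0.049. No paired analysis was possible because each clone and dose had 1 library and every replicate number was 1. Without replicate libraries, a change tied to dose and one tied to the 25 ng/ml library cannot be told apart.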

Other observations

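Gene groups outside the report moved as follows in WT6. Of 14 integrins tested 6 fell and 0 rose, and 6 and 1 after correction for length and GC (removal). ITGB1, the shared beta subunit, read 8971, 8578, 8183, 3977 and 2748 from untreated cells to 25 ng/ml (slope -0.41), and ITGA3, ITGA6 and ITGA2, alpha subunits that bind laminin or collagen, fell from 31038 to 13355, from 3608 to 1426 and from 1544 to 640. Of 32 collagens and laminins 8 fell and 2 rose (median slope -0.10), and 5 and 5 after removal (median -0.01). COL12A1 and COL4A2 fell from 7054 to 2754 and from 2978 to 1185, and LAMA2, a laminin of muscle, rose at a low level from 39.5 to 138. Among 36 genes of hypoxia and glycolysis 5 rose and 6 fell, shares near the 16.4% and 14.9% of all genes, and 7 and 14 after removal. SLC2A1, the glucose transporter, read 14056, 13078, 11144, 9171 and 6758, and VEGFA fell from 1435 to 837, while NDRG1 rose from 1175 to 2790.

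Of 44 genes of proteins that bind 3′ untranslated regions or act in mRNA decay 15 fell (34.1%) and 6 rose (13.6%), against 14.9% and 16.4% of all genes. After removal 13 fell and 8 rose, where 19.6% and 20.4% of all genes did. RC3H2, a decay factor, read 627, 583, 603, 162 and 184, and TIA1, a protein of stress granules, 747, 687, 558, 504 and 252. AUH rose from 115 to 335 and TNRC6C, a partner of Argonaute, from 313 to 674. Of 50 SR and hnRNP splicing factors 13 fell and 0 rose, and 20 and 4 after removal. RBFOX2 and MBNL1, regulators of alternative exons, fell from 2563 to 1132 and from 3442 to 1540. Among 32 genes of the ATF4 stress response 9 rose (28.1%) and 3 fell (9.38%), against 16.4% and 14.9% of all genes. DDIT3, the factor CHOP, read 267, 317, 345, 826 and 848 and CHAC1 44.9, 44.3, 58.8, 104 and 169. NEAT1, a long noncoding RNA of paraspeckles, read 3294, 2844, 3543, 4363 and 7377 (slope 0.28, and 0.40 after removal).

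Of 82 cytosolic ribosomal protein genes 1 rose and 1 fell (1.22% each, against 16.4% and 14.9% of all genes), and 2 and 11 after removal. Their median log2 change was nevertheless 0.93 at 5 ng/ml and 0.55 at 25 ng/ml. After removal the median change was 0.31 at 5 ng/ml and 0.03 at 25 ng/ml. Of 75 mitochondrial ribosomal protein genes 26 rose and 0 fell, and 22 and 9 after removal. Many of these genes have near-identical pseudogene copies, so that their reads may be divided uncertainly.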
